A study of Mus musculus with 92 samples.

Results

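The RNA levels of 9 genes for co-stimulatory and checkpoint molecules of antigen-presenting cells were followed through all 92 libraries of the series. The genes, Cd80, Cd86, Cd40, Icosl, Cd274, Pdcd1lg2, Havcr2, Lgals9 and Sirpa, were chosen by symbol from the 29956 named genes of the table, and each matched 1 gene. The cells were mouse macrophages and their precursors, bone marrow-derived (BMD) or ER-Hoxb8, a progenitor line held immature by an estrogen-dependent Hoxb8 and released into macrophages by estrogen withdrawal in M-CSF. BM progenitors, BM monocytes, ER-Hoxb8 progenitors, ER-Hoxb8 cells at day 4 and BMD and ER-Hoxb8 macrophages at day 7 had 3 libraries each. Bone marrow cells and macrophages and the microglia were labelled FVB WT, and the ER-Hoxb8 cells kept in vitro came from an FVB Cas9 mouse and were labelled Cas9 het. The labels name no strain for the MLCs or the Adar1 lines, and the study describes FVB mice for the Csf1r-/- hosts. Microglia-like cells (MLCs) were donor cells recovered from brains of Csf1r-/- hosts, which lack their own microglia, by a CD45+/CD11B+ sort. BMD MLCs had 6 libraries and ER-Hoxb8 MLCs, labelled WT, had 6, of which replicates 1 to 3 were named GFPHox and replicates 4 to 6 WTHox. Microglia of brains without transplant had 9. For Adar1, ER-Hoxb8 lines carried Cas9 and either a non-targeting control guide (NTC), Adar1 sgRNA 1 or Adar1 sgRNA 2. Each edited line was a pool of cells and not a clone, and every NTC and Adar1 KO library, controls included, carried Cas9. NTC and sgRNA 1 progenitors and macrophages had 3 libraries each, sgRNA 2 had 3 of progenitors and 5 of macrophages. Another 33 libraries were NTC or Adar1 KO (sgRNA 1) macrophages given the JAK inhibitor baricitinib at 0, 0.0006, 0.016, 0.4 or 10 µM during differentiation, with 3 or 4 libraries per dose. The middle doses are as labelled, since the written protocol gives 0.00064 and 0.16 µM for the lower 2 of them. The labels give no ages for the animals.

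T cells need a signal besides the antigen receptor, and antigen-presenting cells supply or withhold it through surface molecules. CD80 and CD86 bind CD28 and its inhibitory counterpart CTLA-4, CD40 is the receptor through which helper T cells license the presenting cell, and ICOSL binds ICOS. PD-L1 (Cd274) and PD-L2 (Pdcd1lg2) bind the inhibitory receptor PD-1, galectin-9 (Lgals9) is a ligand of TIM-3 (Havcr2), which myeloid cells carry themselves, and SIRPα (Sirpa) restrains phagocytosis when it binds CD47. Microglia are the resident macrophages of the brain, and interferon is a known inducer of several of these genes in macrophages.

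All levels are log2 CPM as deposited, that is, counts per 1 M reads on a log2 scale with a small offset, so that a gene without reads sits at the lowest value of its library (within 0.001). Libraries sharing a lowest value were normalized together and fall into 6 sets, with lowest values of -4.34 to -2.78 and estimated depths of 7.33 to 52.5 M (mega) reads per library, and groups were tested only within a set. Changes are differences in mean log2 CPM with their standard error from limma, and a gene was called changed at a Benjamini-Hochberg adjusted p below 0.05 over all genes tested. P-values measure the spread between these libraries, for which separate cultures or animals are not labelled in every case. A few libraries stood apart. Adar1 KO 0.4 µM replicate 2 had a summed level of 20 interferon-response genes of 46410 CPM, against 240 and 470 CPM in the other two of its group. The median rank correlation of microglia replicate 8 with its group was 0.795, against 0.933 to 0.967 in the other microglia. In the ER-Hoxb8 MLCs it was 0.8500 to 0.8935, below every library of the other groups except microglia replicate 8. These MLCs share 1 estimate of the spread with tighter groups. ER-Hoxb8 macrophage replicate 3 departed from its group in several members, as given with the values. ER-Hoxb8 progenitor replicates 1 and 2 went against their label. Their 8 macrophage markers summed to 16160 and 60399 CPM, against 650 in replicate 3, 790 to 2220 in BM progenitors and 43042 to 63186 in ER-Hoxb8 cells at day 4. Their 6 progenitor markers summed to 72.3 and 28.7 CPM, against 2850 in replicate 3, 6787 to 15733 in BM progenitors and 34.8 to 41.0 at day 4. NTC progenitors, in another set, had 497 to 1092 CPM of macrophage and 16843 to 25179 CPM of progenitor markers. The targeted gene was not lower in the untreated knockouts: Adar RNA was at 6.96 to 7.15 in sgRNA 1 macrophages against 5.67 and 5.73 in NTC macrophages, and RNA of an edited gene does not measure its protein. Adar rose with the sgRNA 1 line (log2 fold change 1.34, limma adjusted p = 0.000976). At 10 µM baricitinib it was lower in KO, at 1.55 to 2.91 against 3.22 to 3.70 (-1.36, limma adjusted p = 0.0148).

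Most of the genes could be followed nearly everywhere, but Cd80 and Pdcd1lg2 could not. Cd274, Lgals9 and Sirpa were above 0 log2 CPM, that is, above about 1 CPM, in 92 of 92 libraries, Icosl in 90, Cd86 in 89, Havcr2 in 87 and Cd40 in 61. Cd80 was above 0 in 30 libraries and at the lowest value in 24, with a highest level of 2.71. Pdcd1lg2 was above 0 in 7 libraries and at the lowest value in 43, and it passed the filter on low values (above 0 in 3 libraries of a fit, or in 6 for the fit with the brain samples) in 0 of 34 comparisons. In bulk RNA, fewer cells of one type and less RNA per cell cannot be told apart for any of the values below.

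The first question was how far ER-Hoxb8 cells resemble their bone marrow counterparts before they become macrophages. With all 3 libraries labelled ER-Hoxb8 progenitors, the group had more Cd274, Cd80 and Sirpa RNA and less Cd40 RNA than BM progenitors, 4 of the 8 members tested, against 25.6% of the 12134 genes tested. Cd40 was at 1.58, 4.29 and 3.42 in BM progenitors and at -0.60, -0.41 and -1.98 in ER-Hoxb8 progenitors. The groups did not overlap, and Cd40 fell by 4.09 ± 0.73 (SE, limma adjusted p = 0.00159), a level 17.1-fold lower. Cd274 was at 0.48, 1.53 and 1.94 in BM progenitors and at 5.48, 4.88 and 2.93 in ER-Hoxb8 progenitors, 8.65-fold higher (limma adjusted p = 0.0221). All 3 ER-Hoxb8 libraries were above all 3 BM libraries, and the call was lost without 1 library in 4 of 6 cases. Sirpa was at 4.40, 5.50 and 5.05 against 8.47, 9.73 and 6.07, again without overlap, and rose 8.63-fold (limma adjusted p = 0.0071). Cd80 was at the lowest value in 2 BM progenitor libraries and at -1.59 in the other, and at 1.91, 1.11 and -1.68 in ER-Hoxb8 progenitors. Its groups overlapped by 1 library, and its change of 3.87 ± 1.29 (limma adjusted p = 0.0471) depends on the offset, since on log2(CPM + 1) it was not called. The 3 calls of higher levels changed when the replicates high in macrophage markers were left out. Without replicate 2, Sirpa was called higher and Cd40 and Icosl lower (3 of 8, against 28.6% of all genes), and Cd274 and Cd80 were not called. With replicate 3 alone, assumed to vary like the other groups, 2 of 8 members were called, against 21.2%. Cd40 was still lower (-5.07, limma adjusted p = 0.0037) and Cd86 was lower (-2.01, limma adjusted p = 0.0294), whereas Sirpa differed by 1.09, Cd274 by 1.61 and Cd80 by 1.74, none of them called. ER-Hoxb8 progenitor replicate 2 was the highest of its group for Cd86 (4.36 against 2.22 and 0.75), Icosl (4.54 against 0.92 and 2.33) and Havcr2 (4.33 against 0.26 and 0.41). Markers of other blood cells were lower in the ER-Hoxb8 progenitors, and their part in these calls was not tested. The 6 B cell markers summed to 186 to 1144 CPM in BM and 2.19 to 19.96 in ER-Hoxb8 progenitors (6 of 6 fell), and the 8 T and NK cell markers to 247 to 479 against 1.95 to 2.36 CPM (8 of 8 fell, with Cd3e at the lowest value in all 3 ER-Hoxb8 libraries). The 8 dendritic cell markers summed to 166 to 186 against 2.64 to 14.9 CPM (6 of 7 tested fell, with Clec9a at the lowest value), and the 6 neutrophil markers to 300 to 9292 against 11.5 to 37.0 CPM (6 of 6 fell).

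Monocytes of the bone marrow had more Cd86, Icosl and Sirpa RNA than BM progenitors, 3 of 8 members tested against 13.7% of all genes. Cd86 was at 5.45, 5.93 and 5.78 in monocytes and at 2.14, 3.27 and 2.87 in progenitors, a 7.78-fold rise (2.96 ± 0.74, limma adjusted p = 0.0231). Icosl was at 5.63, 5.72 and 5.18 against 2.90, 3.29 and 2.70 (5.85-fold, limma adjusted p = 0.0335), and Sirpa at 7.73, 7.67 and 7.82 against 4.40, 5.50 and 5.05 (6.77-fold, limma adjusted p = 0.0256). None of these 3 genes overlapped between the groups, yet the number called was 0 when any of 5 single libraries was left out, all but BM progenitor replicate 2. Lgals9 went the other way, at 8.71, 8.43 and 8.75 in progenitors and 7.05, 7.59 and 7.35 in monocytes, and missed the threshold (limma adjusted p = 0.0529). Between ER-Hoxb8 progenitors and day 4, limma called 0 of 8 members and 0 of the 12134 genes, with 1 member and 1135 genes at an unadjusted p under 0.05. Without ER-Hoxb8 progenitor replicate 2 it called 3 of 8, Cd86 (2.39), Icosl (2.32) and Havcr2 (4.38), all higher at day 4, against 11.1% of all genes. With progenitor replicate 3 alone it called the same 3 and Sirpa (2.93), 4 of 8 against 18.3%. With all libraries, Havcr2 was at 5.29, 4.36 and 4.50 at day 4, above all 3 progenitor libraries (3.05, limma adjusted p = 0.497). Day 4 cells differed from BM monocytes in 1 member, against 17.5% of all genes: Cd40 was at -2.24, -0.27 and -1.11 at day 4 and at 5.03, 5.61 and 5.09 in monocytes, 87.5-fold lower (-6.45 ± 0.73, limma adjusted p = 0.00011). BM monocytes also held 60.7 to 83.1 CPM of B cell, 94.1 to 168 CPM of T and NK cell and 70.5 to 172 CPM of dendritic cell markers, against 1.80 to 20.04, 0.93 to 2.69 and 5.44 to 16.1 CPM at day 4, and 450 to 8751 CPM of neutrophil markers against 39.7 to 53.8. Of these lists 4 of 6, 7 of 8, 5 of 7 and 5 of 6 tested genes fell, with Cd3e and Clec9a at the lowest value at day 4, and their part in the Cd40 difference was not tested.

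**Figure D1:**
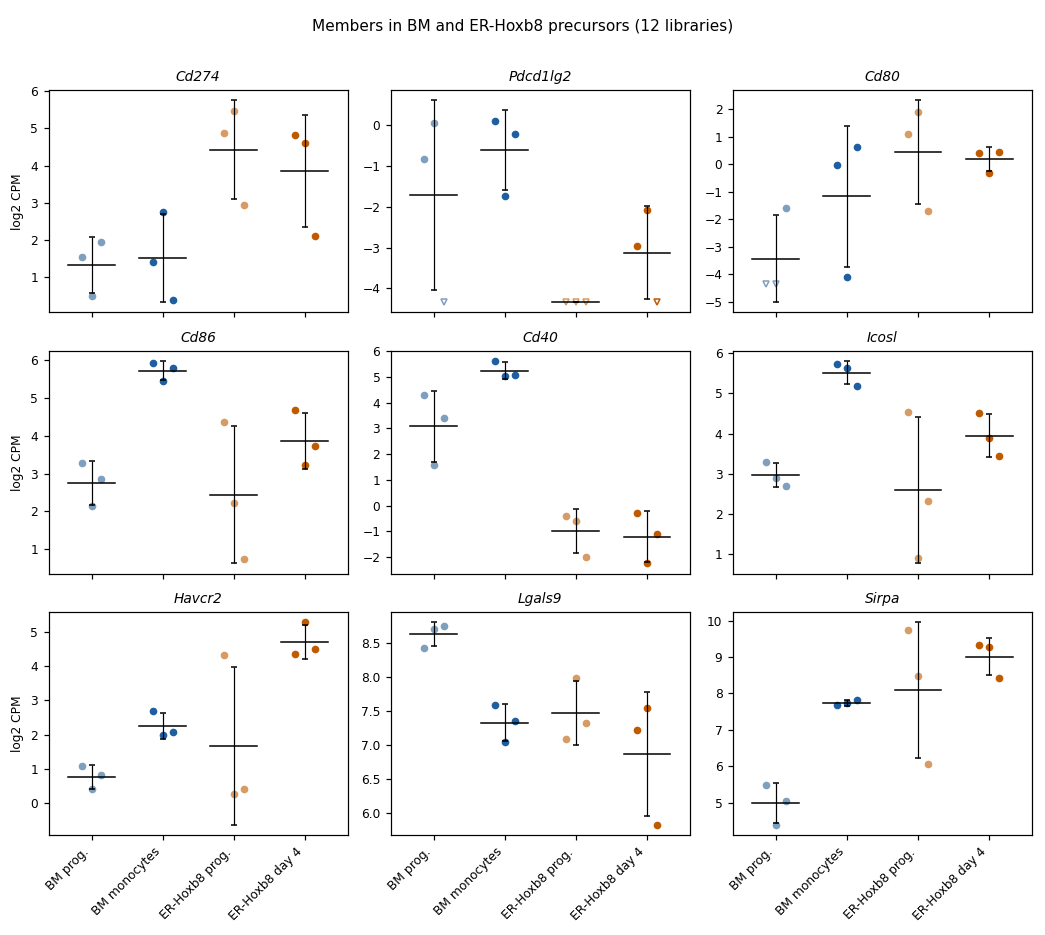
Log2 CPM of the members in BM progenitors, BM monocytes, ER-Hoxb8 progenitors and ER-Hoxb8 cells at day 4, 3 libraries per group; points are libraries, open triangles are libraries at the lowest value, black lines are means and bars are SD. Cd40 lies at or below -0.27 in all 6 ER-Hoxb8 libraries and at or above 1.58 in all 6 BM libraries.

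At day 7, no member was called between in vitro macrophages of the 2 origins. BMD and ER-Hoxb8 macrophages differed in 0 of 7 members tested with limma, 1 of which had an unadjusted p under 0.05, against 1.61% of the 10859 genes tested, or 175 genes. Cd40, the receptor through which helper T cells license the presenting cell, came closest. It was at 3.94, 1.27 and 3.27 in BMD macrophages and at -1.50, -0.66 and -0.75 in ER-Hoxb8 macrophages, so the groups did not overlap, and the difference of -3.80 ± 0.77 missed the threshold (limma adjusted p = 0.0738). The 8 dendritic cell markers summed to 8.74, 182 and 206 CPM in BMD macrophages, where Ccr7 was at the lowest value, and to 12.1 to 12.7 CPM in ER-Hoxb8 macrophages, and their part in the Cd40 values was not tested. The Cd40 values of the libraries labelled ER-Hoxb8 progenitors, day 4 cells and macrophages, from separate sets, were below 0 log2 CPM in 9 of 9. NTC ER-Hoxb8 macrophages without baricitinib, in other sets, ranged from -1.12 to 0.32. Icosl (4.22, 5.23 and -1.06) and Havcr2 (5.36, 5.19 and -2.65) were far lower in ER-Hoxb8 macrophage replicate 3 than in its group, while its Cd274 was the highest (4.75, 4.73 and 6.81). The BMD values of Icosl were 4.09, 2.70 and 5.95, those of Havcr2 4.95, 3.47 and 6.94 and those of Cd274 4.10, 5.34 and 3.11. Among 52 other co-stimulatory and checkpoint genes, of which 51 were in the table and 30 were tested here, 0 rose and 2 fell. Cd48, a ligand of 2B4, was 145-fold lower in ER-Hoxb8 macrophages (-7.18 ± 0.65, limma adjusted p = 0.00663), and Traf1, an adaptor of TNF receptors, fell by 5.21 (limma adjusted p = 0.0484). Nectin2, a ligand of TIGIT and DNAM-1, differed by 2.11 (limma adjusted p = 0.151).

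Cells recovered from the brain had far more Cd86 and Havcr2 and less Sirpa RNA than cultured macrophages, for both kinds of donor cell. Cd40 was higher with ER-Hoxb8 cells and Cd274 lower with BMD cells. The ER-Hoxb8 macrophages came from a Cas9 mouse, the ER-Hoxb8 MLCs were labelled WT, and only brain cells were taken from tissue and sorted. Brain residence was not tested apart from donor line and isolation. In BMD MLCs against BMD macrophages 4 of 8 members were called, against 30.7% of the 12647 genes tested, and in ER-Hoxb8 MLCs against ER-Hoxb8 macrophages 4 of 8, against 34.7%. Cd86, the ligand of CD28, was at 3.67, 3.75 and 4.87 in BMD macrophages and at 3.77, 4.97 and 3.07 in ER-Hoxb8 macrophages. In BMD MLCs its lowest, median and highest values were 8.55, 9.09 and 9.24, and in ER-Hoxb8 MLCs 8.75, 9.09 and 9.83. Every brain library was above every culture library, with changes of 4.95 ± 0.34 (30.9-fold, limma adjusted p = 4.36e-10) and 5.30 ± 0.34 (39.5-fold, limma adjusted p = 1.23e-11). Havcr2 reached 7.71 to 8.88 in BMD MLCs and 7.05 to 8.18 in ER-Hoxb8 MLCs, with medians of 8.25 and 8.02, again above every culture library. Its rise of 3.23 ± 1.01 in BMD cells (9.40-fold, limma adjusted p = 0.0169) was lost without 2 of 11 single libraries. That of 5.23 ± 1.01 in ER-Hoxb8 cells (37.4-fold, limma adjusted p = 0.000321) shrank to 2.59 without ER-Hoxb8 macrophage replicate 3, still called. Sirpa, at 9.86, 10.46 and 9.90 in BMD and 9.97, 9.41 and 9.59 in ER-Hoxb8 macrophages, had medians of 8.72 and 7.94 in the MLCs. It fell by 1.33 ± 0.38 (limma adjusted p = 0.00956) and by 1.66 ± 0.38 (limma adjusted p = 0.00155), with no overlap in either comparison.

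Cd40 separated the 2 donor types. ER-Hoxb8 MLCs had Cd40 levels of 8.73, 6.70, 8.88, 5.36, 7.57 and 8.03, each above every other library of the set of brain samples and day 7 macrophages. In BMD MLCs the lowest, median and highest were 3.20, 3.90 and 5.24, and in microglia 0.38, 1.03 and 1.61. The rise from ER-Hoxb8 macrophages was 8.52 ± 0.64 (366-fold, limma adjusted p = 1.42e-10), whereas BMD cells changed by 1.18 ± 0.64 (limma adjusted p = 0.162). The difference between these changes was itself tested and was 7.33 ± 0.90 (limma adjusted p = 1.27e-05), 1 of 8 members called against 3.23% of all genes. Cd274 behaved otherwise: it was at 7.71, 5.90, 7.64, 4.31, 5.47 and 7.27 in ER-Hoxb8 MLCs, overlapping its macrophages, and at 0.37 to 2.55 in BMD MLCs, below all 3 BMD macrophage libraries. The fall in BMD cells was 5.29-fold (limma adjusted p = 0.00984), and it was not called without BMD macrophage replicate 2, when 1 of the 4 BMD calls was left. The test of the difference between the donor types gave 3.35 ± 0.97 for Cd274 (limma adjusted p = 0.0561, and 0.0431 without microglia replicate 8).

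Set against microglia, MLCs of both origins held Cd40 at higher and Sirpa at lower levels, and ER-Hoxb8 MLCs also held more Cd274. Of 8 members tested, 3 were called in BMD MLCs, against 20.4% of all genes, and 3 in ER-Hoxb8 MLCs, against 33.8%. Cd40 was 8.10-fold higher in BMD MLCs (3.02 ± 0.48, limma adjusted p = 2.87e-05) and 93.8-fold higher in ER-Hoxb8 MLCs (6.55 ± 0.48, limma adjusted p = 2.32e-11) than in microglia, with no overlap. Cd274, which ranged from 0.31 to 2.52 in microglia with a median of 1.74, was 26.5-fold higher in ER-Hoxb8 MLCs (4.73 ± 0.51, limma adjusted p = 3.87e-08) and differed by 0.13 ± 0.51 in BMD MLCs (limma adjusted p = 0.909). Sirpa, the CD47 receptor, had a lowest, median and highest value of 8.89, 10.02 and 10.92 in microglia. It was 3.62-fold lower in ER-Hoxb8 MLCs without overlap (limma adjusted p = 8.7e-06), and 2.15-fold lower in BMD MLCs with overlap (limma adjusted p = 0.00525). Icosl was called higher in BMD MLCs (medians 7.47 and 5.05, 3.32 ± 1.19, limma adjusted p = 0.0486). Its groups overlapped, microglia replicate 8 was at the lowest value, and without that library the change was 2.40 and not called. Cd86 had a median of 9.34 in microglia and differed by -0.38 ± 0.26 and -0.18 ± 0.26 in BMD and ER-Hoxb8 MLCs, Lgals9 by -0.12 ± 0.47 and -0.17 ± 0.47 and Havcr2 by 0.25 ± 0.75 and -0.24 ± 0.75, none of them called. Cd80 had a median of 1.40 in microglia, with a range of 0.57 to 1.58, while 2 of 6 BMD MLC and 3 of 6 ER-Hoxb8 MLC libraries were at the lowest value. Its differences of -2.54 ± 0.99 and -2.28 ± 0.99 missed the threshold (limma adjusted p = 0.0719 and 0.0783).

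Direct comparison of the 2 MLC types called Cd274 and Cd40, 2 of 8 members, against 15.1% of all genes. Cd274 was 24.3-fold higher in ER-Hoxb8 MLCs (4.60 ± 0.56, limma adjusted p = 1.81e-06) and Cd40 11.6-fold higher (3.53 ± 0.52, limma adjusted p = 2.87e-05). Both differences kept their call with either library series alone, at 5.30 and 4.09 for the GFPHox libraries and 3.90 and 2.97 for the WTHox libraries. The median over all 12647 genes was -0.22 in this comparison, -0.10 for ER-Hoxb8 MLCs against microglia and -0.15 for ER-Hoxb8 MLCs against macrophages, small beside these values. Pdcd1lg2, the other PD-1 ligand, was at 3.20, 3.22, 2.08 and 4.20 in ER-Hoxb8 MLC replicates 1, 3, 5 and 6 and at -2.83 and -3.06 in replicates 2 and 4. BMD MLCs had 5 of 6 libraries at the lowest value and microglia reached -1.51 at most, but no test was made for it since too few libraries were above 0.

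Several gene lists moved with the same groups, and their part in these results was not tested. The 20 interferon-response genes summed to 3438 to 11383 CPM in ER-Hoxb8 MLCs, 391 to 595 in BMD MLCs and 208 to 336 in microglia, with 20 of 20 higher in ER-Hoxb8 MLCs than in microglia and 18 of 20 higher than in BMD MLCs. Of 8 T and NK cell markers, 6 were higher in ER-Hoxb8 MLCs than in microglia, with sums of 62.5 to 644 CPM against 3.06 to 32.3 in microglia and 14.2 to 111 in BMD MLCs, and none of the 8 was at the lowest value throughout a brain group. The sum of 6 neutrophil markers was 256 to 43759 CPM in ER-Hoxb8 MLCs, 4435 to 33075 in BMD MLCs and 436 to 6331 in microglia, and that of 8 dendritic cell markers 26.1 to 269, 41.1 to 185 and 20.5 to 55.2 CPM. In culture the neutrophil markers summed to 2.94 to 15.49 CPM in BMD and 9.73 to 37.2 CPM in ER-Hoxb8 macrophages. The T and NK cell markers summed to 0.644 to 2.695 and 1.26 to 2.54 CPM there. The dendritic cell markers, at 8.74 to 206 CPM in BMD macrophages, overlapped the BMD MLCs, and were at 12.1 to 12.7 CPM in ER-Hoxb8 macrophages. The 8 microglia markers summed to 62965 to 86728 CPM in microglia, 5860 to 20677 in BMD MLCs and 876 to 11512 in ER-Hoxb8 MLCs, with 8 of 8 lower in ER-Hoxb8 MLCs than in microglia. The 6 border macrophage markers, of macrophages at the edges of the brain, summed to 1888 to 3490 CPM in BMD MLCs, 271 to 1245 in ER-Hoxb8 MLCs and 18.7 to 192 in microglia, with 2 higher and 1 lower in ER-Hoxb8 MLCs than in microglia. The 8 dissociation-response genes summed to 158 to 867 CPM in ER-Hoxb8 MLCs, 141 to 456 in BMD MLCs and 39.8 to 223 in microglia, with 5 of 8 higher in ER-Hoxb8 MLCs than in microglia. The mean of each of the 8 macrophage markers was above 1 CPM in each of these groups. Of the other co-stimulatory and checkpoint genes, 41 were tested among the brain samples. Between ER-Hoxb8 MLCs and microglia 17 rose and 6 fell, led by Fgl2, a ligand of an inhibitory Fc receptor (6.59, limma adjusted p = 1.87e-12), Lgals1 (4.56, limma adjusted p = 4.32e-11) and Cd72 (5.51, limma adjusted p = 9.06e-09). Their median change was 1.29. From ER-Hoxb8 macrophages to MLCs 16 rose and 8 fell, and Cd48, lower in culture than in BMD macrophages, rose by 6.73 (limma adjusted p = 4.69e-13). Fgl2 rose by 6.05 (limma adjusted p = 5e-09) and Tnfsf10, the death ligand TRAIL, by 4.40 (limma adjusted p = 1.67e-08).

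**Figure D2:**
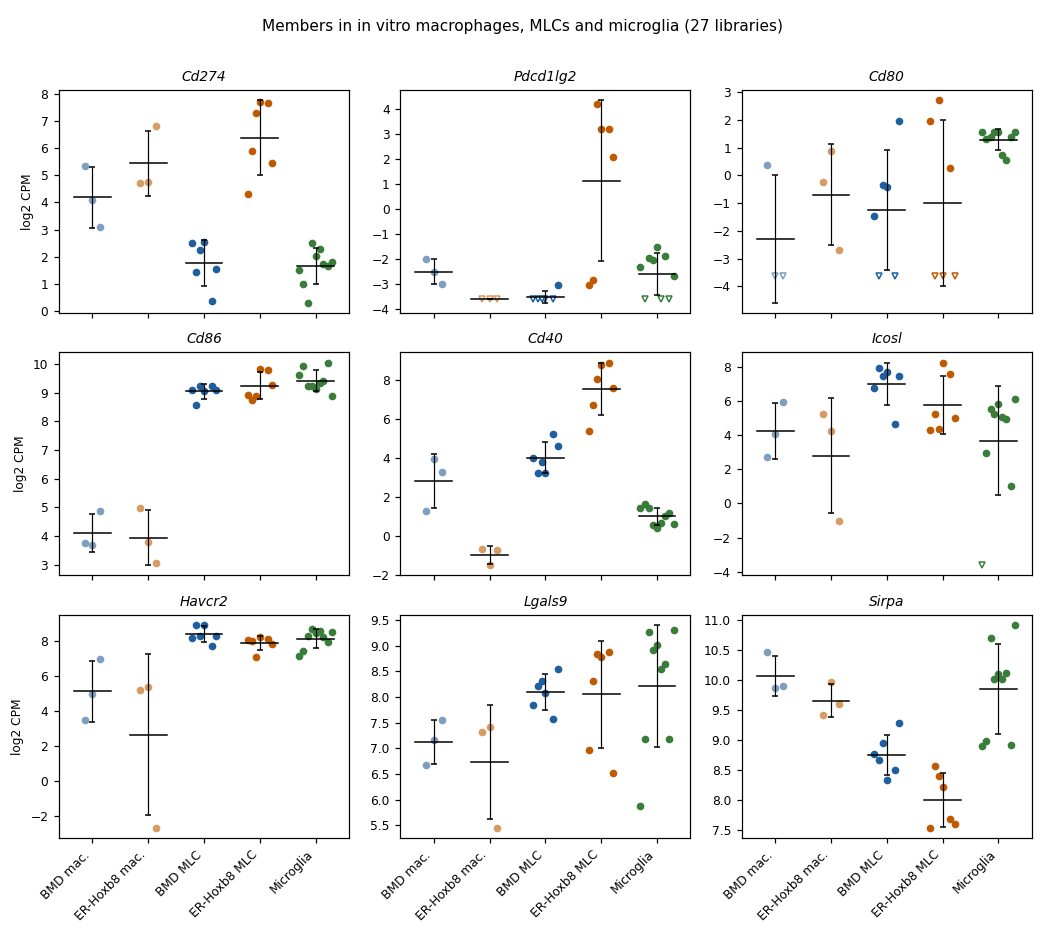
Log2 CPM of the members in BMD and ER-Hoxb8 macrophages at day 7 (3 libraries each), BMD and ER-Hoxb8 MLCs (6 each) and microglia (9); points are libraries, open triangles are libraries at the lowest value, black lines are means and bars are SD. Cd40 in ER-Hoxb8 MLCs, at 5.36 to 8.88, lies above all other groups, and Cd86 is above 8.5 in every brain library.

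The Adar1 lines asked what loss of the RNA-editing enzyme does to macrophages. In sgRNA 1 macrophages Cd274, Lgals9 and Cd40 rose, 3 of the 7 members tested, against 21.8% of the 11119 genes tested. Cd274 was at 8.22, 8.25 and 7.66 in sgRNA 1 macrophages and at 6.29 and 6.09 in the 2 NTC libraries of the same set, 3.61-fold higher (1.85 ± 0.22, limma adjusted p = 0.000111). Lgals9 was at 8.93, 8.67 and 8.16 against 6.99 and 6.75 (3.29-fold, 1.72 ± 0.23, limma adjusted p = 0.000252). Cd40 was at 3.16, 2.26 and 1.41 against -1.12 and -0.99 (10.1-fold, 3.33 ± 0.66, limma adjusted p = 0.00409). It passed the filter only through the 3 sgRNA 1 macrophage libraries, where it was high, so its call adds no independent support to the count. For all 3 genes the groups did not overlap. NTC macrophage replicate 2 was normalized alone and was left out of the test, and its values on its own scale were 5.79, 6.75 and -0.76 for Cd274, Lgals9 and Cd40. Cd86 was at 6.63, 5.79 and 5.45 against 5.49 and 5.34 (0.54 ± 0.34, limma adjusted p = 0.28). Havcr2 differed by 0.59 ± 0.50, Icosl by -0.52 ± 0.38 and Sirpa by -0.09 ± 0.17, none of them called. Cd274 and Lgals9 kept their calls in 5 of 5 single-library omissions and Cd40 in the 2 that left it enough libraries above 0 to be tested. The 20 interferon-response genes summed to 7972 to 16015 CPM in sgRNA 1 and 603 to 677 CPM in NTC macrophages and 20 of 20 rose. The 6 border macrophage markers summed to 250 to 368 CPM in sgRNA 1 and 1886 to 2343 in NTC macrophages (3 of 3 tested fell, with Lyve1 and Cd209f at the lowest value in both groups), and the 6 neutrophil markers to 69.0 to 82.6 against 10.7 to 15.4 CPM (2 of 4 tested rose). The part of these lists in the 3 member calls was not tested.

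Before differentiation the same guide gave no called member. In sgRNA 1 against NTC progenitors, limma called 0 of 7 members, 1 of which had an unadjusted p under 0.05, against 0.917% of all genes. Cd86 was at 0.12, 0.27 and 0.19 with sgRNA 1 and at -0.85, -0.49 and -1.37 with NTC, without overlap (1.10 ± 0.30, limma adjusted p = 0.209). The guide's effect was larger in macrophages than in progenitors by 2.01 ± 0.30 for Cd274, 1.92 ± 0.31 for Lgals9 and 3.49 ± 0.88 for Cd40 (limma adjusted p = 0.000872, 0.00154 and 0.0234), 3 of 7 members against 13.6% of all genes. The Cd40 call was lost in 3 of 8 single-library omissions and without the filter (limma adjusted p = 0.0666). From progenitors to macrophages 5 of 7 members were called with NTC, against 71.5% of all genes, 7 of 7 with sgRNA 1, against 71.1%, and 7 of 7 with sgRNA 2, against 81.1%, and each of these calls was a rise. Cd40 passed the filter here only through the sgRNA 1 and sgRNA 2 macrophages, so its rises with these guides are no independent support. Cd86 rose 79.8-fold with NTC, 54.2-fold with sgRNA 1 and 8.39-fold with sgRNA 2, and Havcr2 22.7-fold, 42.5-fold and 20.7-fold. Lgals9 and Cd40 were the 2 members not called with NTC, where Lgals9 was at 7.41, 7.00 and 6.85 before and at 6.99 and 6.75 after. The sgRNA 2 libraries have no NTC library in their set, so that guide was not tested against NTC. In its macrophages Cd274 was at 7.41, 6.95, 7.32, 7.48 and 7.09, Lgals9 at 8.13 to 8.30 and Cd40 at 1.13 to 2.57, each above the same guide's progenitors (2.22, 2.19 and 2.09 for Cd274, 6.65 to 6.82 for Lgals9 and -2.23 to -1.01 for Cd40). Cd86 was at 4.07 to 4.21 in sgRNA 2 macrophages and at 0.70 to 1.37 in sgRNA 2 progenitors. Among the 28 other co-stimulatory and checkpoint genes tested, 11 rose and 2 fell in sgRNA 1 macrophages, with a median of 0.59 against 0.05 over all genes. Lair1, an inhibitory collagen receptor, rose by 1.92 (limma adjusted p = 4.49e-06), Fgl2 by 3.26 (limma adjusted p = 7.34e-05), and Tnfrsf14, the receptor of LIGHT, fell by 2.65 (limma adjusted p = 2.03e-05).

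The promoters of members called with the Adar1 guide are shown because Cd274 and Lgals9 rose with it in both series of macrophages, the one above and the untreated one below. RefSeq promoter windows (GRCm38.p6, 250 bases before to 50 after the start site, written on the gene's strand) were at hand for 6 of the 9 members, and among the called genes for Cd274 at chr19:29367188-29367487 (+ strand), Havcr2 at chr11:46454681-46454980 (+ strand) and Lgals9 at chr11:78984875-78985174 (- strand). Capitals mark matches to the ISRE core, the element bound by interferon-activated factors, searched as GAAANNGAAA on both strands.
Cd274: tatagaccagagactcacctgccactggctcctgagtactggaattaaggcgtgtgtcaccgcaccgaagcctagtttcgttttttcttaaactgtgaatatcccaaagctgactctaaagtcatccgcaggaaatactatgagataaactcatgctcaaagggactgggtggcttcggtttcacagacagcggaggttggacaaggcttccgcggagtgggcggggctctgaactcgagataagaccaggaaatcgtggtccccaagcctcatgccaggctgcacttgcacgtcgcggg
Havcr2: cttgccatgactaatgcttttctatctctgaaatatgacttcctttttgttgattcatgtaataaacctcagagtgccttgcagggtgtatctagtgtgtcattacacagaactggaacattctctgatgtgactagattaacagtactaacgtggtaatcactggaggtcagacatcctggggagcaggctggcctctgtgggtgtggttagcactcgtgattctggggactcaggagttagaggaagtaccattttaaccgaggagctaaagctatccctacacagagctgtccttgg
Lgals9: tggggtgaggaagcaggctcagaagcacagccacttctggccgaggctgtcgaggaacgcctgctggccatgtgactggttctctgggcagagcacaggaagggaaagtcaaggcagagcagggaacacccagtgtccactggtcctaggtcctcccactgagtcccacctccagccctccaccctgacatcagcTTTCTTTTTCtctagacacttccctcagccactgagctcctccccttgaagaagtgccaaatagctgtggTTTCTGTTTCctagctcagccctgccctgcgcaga
The Lgals9 window held 2 matches, both on the strand opposite to the gene, with first bases at position -55 and 16 from the start site, and the windows of the other 5 members held none. Of all 32851 promoter windows, 3.44% held the ISRE core. The GAS motif, searched as TTCNNNGAA, was in none of the 6 windows and in 8.3% of all, and the NF-kappaB motif, in 8.46% of all, matched once in Icosl and at 1 place on both strands in Pdcd1lg2. A match is a description of the letters and not of binding.

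**Figure D3:**
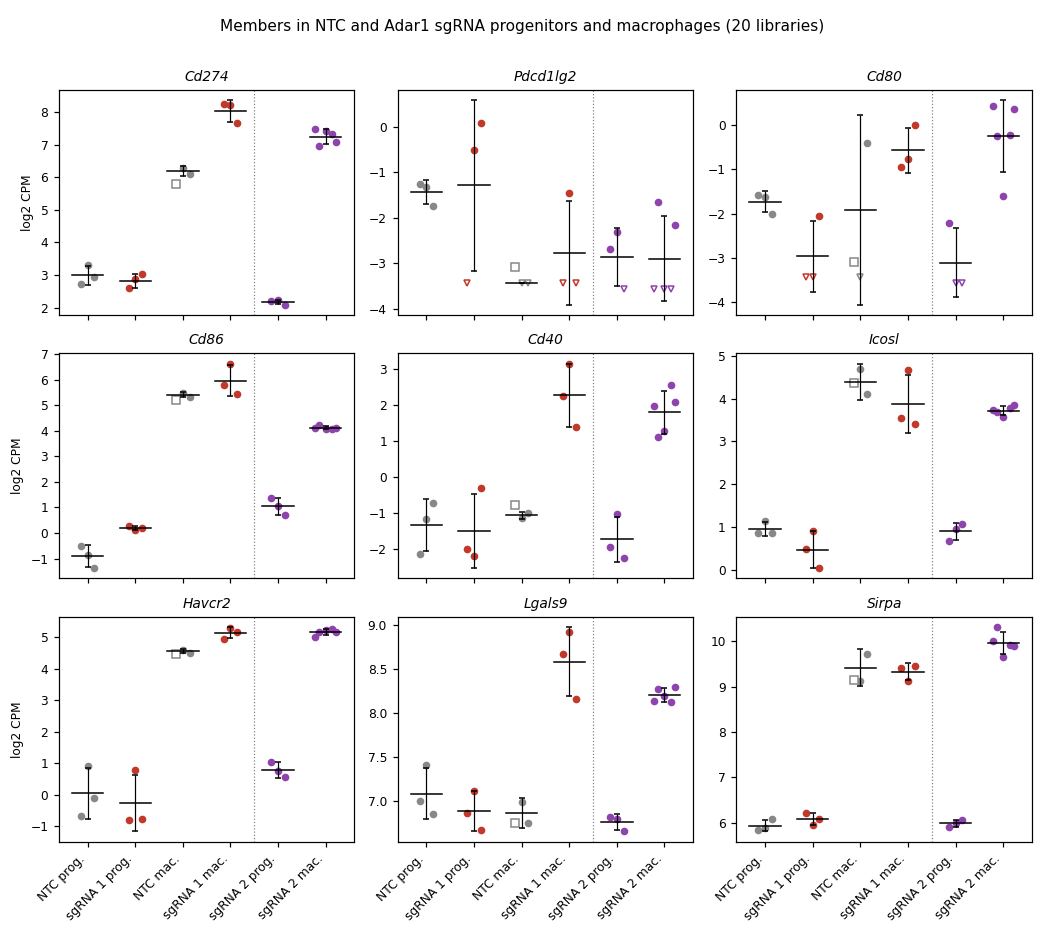
Log2 CPM of the members in NTC and sgRNA 1 progenitors and macrophages and, to the right of the dotted line on a separate scale, sgRNA 2 progenitors and macrophages; points are libraries, open triangles are libraries at the lowest value, the open square is NTC macrophage replicate 2, which was normalized alone and is not in the mean, black lines are means and bars are SD. In macrophages Cd274 with sgRNA 1 is at 7.66 to 8.25, above NTC at 6.09 and 6.29.

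The baricitinib series compared NTC with the same guide, sgRNA 1, in other libraries and added JAK inhibition. Its p-values do not cover variation between guides or edited lines. Without drug, Adar1 KO macrophages had more Cd274, Cd86, Lgals9 and Havcr2 RNA than NTC macrophages, 4 of 8 members tested against 24.9% of the 11339 genes. Cd274 was at 7.45, 6.90 and 6.65 in KO and at 3.80, 3.64 and 4.07 in NTC (8.95-fold, 3.16 ± 0.61, limma adjusted p = 0.000299). Lgals9 was at 8.31, 8.34 and 8.33 against 6.55, 6.40 and 6.43 (3.64-fold, limma adjusted p = 0.00462), and Cd86 at 6.01, 6.04 and 6.32 against 3.93, 3.87 and 3.82 (4.76-fold, limma adjusted p = 2.35e-07). None of these groups overlapped. Cd86 had not been called with the same guide in the first series of macrophages, so its call rests on the baricitinib series. Havcr2 differed by less, at 5.93, 5.90 and 6.36 against 5.34, 5.47 and 5.57 (1.52-fold, limma adjusted p = 0.00462). Cd40 was at 0.90, 2.12 and 1.90 against -0.06, 0.32 and -0.33, and its change of 1.67 ± 1.19 missed the threshold (limma adjusted p = 0.335). Adar1 KO 0.4 µM replicate 2, with Cd40 at 7.49 between group members at -0.52 and -1.51, widened the spread that all these tests share. With that library left out, 6 of 8 members were called, all higher, against 30.5% of 11317 genes, with Cd40 (limma adjusted p = 0.0111) and Icosl (3.88, 4.47 and 4.41 against 3.27, 3.58 and 3.03, limma adjusted p = 0.00647) added. The interferon-response genes summed to 6301 to 6740 CPM in KO and 420 to 524 CPM in NTC, 20 of 20 called higher. The border macrophage markers summed to 282 to 426 CPM in KO and 896 to 1122 CPM in NTC (3 of 4 tested fell and 1 rose), and to 1648 to 2201 CPM in KO and 1990 to 2199 CPM in NTC at 10 µM.

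The 2 lowest doses left the contrast in place. At 0.0006 µM, 3 of 8 members were called in KO against NTC, all higher, against 28.6% of all genes (5 of 8 against 33.3% without that library), and at 0.016 µM 4 of 8, against 31.8% (6 of 8 against 36.4%). Cd274 was higher in KO by 3.47 and 3.01, Cd86 by 2.59 and 3.07 and Lgals9 by 1.90 and 2.45 (limma adjusted p at most 0.00326). Within the KO line limma called 0 of 8 members at either dose against 0 µM, with 0 and 1 members at an unadjusted p under 0.05, where 2.31% and 5.98% of all genes were called. Without KO 0.4 µM replicate 2, 1 of 8 was called at 0.016 µM, Cd86 (0.72, limma adjusted p = 0.00961), against 9.84%. Within NTC it called 0 of 8 members and 0 of 11339 genes at these doses, with 0 members and 354 and 441 genes at an unadjusted p under 0.05. At the next dose 1 library stood far apart. In KO against NTC the Cd274 call was lost in 4 of 7 single-library omissions, and those of Cd86, Lgals9 and Icosl were kept in 7 of 7. At 0.4 µM KO libraries had Cd274 at 3.36, 7.69 and 3.51, Lgals9 at 6.24, 10.06 and 6.64 and Cd40 at -0.52, 7.49 and -1.51, in each case with replicate 2 far above the other two. NTC at this dose had Cd274 at 3.25, 2.53, 2.91 and 3.39 and Lgals9 at 5.71, 5.58, 5.68 and 5.74. With all libraries, KO against NTC gave 4 of 8 members called, against 13.3% of all genes, among them Cd274 (1.83, limma adjusted p = 0.0323). Without replicate 2 it gave 3 of 8, against 6.50%: Cd86 (2.50, limma adjusted p = 1.63e-10), Lgals9 (0.77, limma adjusted p = 6.43e-05) and Icosl (1.01, limma adjusted p = 0.0268). Cd274 then differed by 0.41 (limma adjusted p = 0.463).

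Within the KO line, 0.4 µM against 0 µM had Cd274 lower and Icosl higher, 2 of 8 members against 26.0% of all genes. Without replicate 2, Cd274 fell by 3.57, Cd40 fell by 2.66 and Lgals9 fell by 1.88, and Icosl rose by 0.82 (4 of 8 against 32.4%). The largest dose gave the clearest pattern. At 10 µM KO libraries had Cd274 at 1.76, 0.79, 1.34 and 1.79, 47.9-fold below the untreated KO libraries (-5.58 ± 0.57, limma adjusted p = 2.04e-09). Lgals9 was at 6.11, 5.77, 6.15 and 6.13 (4.87-fold lower, limma adjusted p = 6.06e-05), and Sirpa fell from 9.26, 9.53 and 9.72 to 7.78, 7.84, 8.40 and 8.18 (2.74-fold, limma adjusted p = 4.05e-07). These 3 of 8 members stood against 65.0% of all genes, so the count itself is below the background. Cd40 was at 0.20, -0.28, 0.48 and -0.54 and its change of -1.68 was called without 0.4 µM replicate 2 (limma adjusted p = 0.19 with all libraries and 0.00233 without it), when 4 of 8 were called against 68.0%. Cd86 was at 6.72, 6.26, 5.94 and 6.20, overlapping the untreated KO libraries (0.16, limma adjusted p = 0.585).

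At 10 µM, Cd86 was again higher in KO than in NTC cells, while Sirpa and, with a less stable call, Havcr2 were lower. NTC libraries at 10 µM had Cd86 at 4.37, 4.26 and 4.27, 3.95-fold below the KO (1.98 ± 0.24, limma adjusted p = 1.83e-07). Cd274 was at 2.33, 1.56 and 2.68 in NTC, and the KO difference was -0.77 (limma adjusted p = 0.284, and 0.0132 without 0.4 µM replicate 2). Sirpa was at 9.12, 9.00 and 9.30 in NTC and 2.13-fold lower in KO (-1.09 ± 0.20, limma adjusted p = 6.96e-05), and Havcr2, at 6.47, 6.40 and 6.34 against 6.26, 5.87, 5.93 and 6.06, was lower by a small step (-0.37 ± 0.14, limma adjusted p = 0.0396). The Havcr2 call was lost in 6 of 8 single-library omissions and without the filter (limma adjusted p = 0.0623). Those of Cd86 and Sirpa were kept in 8 of 8. These 3 of 8 calls stood against 44.5% of all genes, and without 0.4 µM replicate 2 there were 5 of 8, against 49.7%. The change of the KO effect between 0 and 10 µM was tested directly and was called for 5 of 8 members, against 38.8% of all genes: Cd274 by -3.93, Lgals9 by -1.67, Icosl by -1.65, Sirpa by -1.07 and Havcr2 by -0.97. Cd274, Sirpa and Havcr2 kept this call in 14 of 14 single-library omissions, and Icosl lost it in 3. Lgals9 lost it in 13 of 14 and without the filter (limma adjusted p = 0.0828), but not without 0.4 µM replicate 2 (limma adjusted p = 2.7e-09). At 0.0006, 0.016 and 0.4 µM limma called the change of the KO effect for 0 of 8 members (0%, 0.00882% and 4.61% of all genes), with 0, 1 and 3 at an unadjusted p under 0.05. Without 0.4 µM replicate 2 it was called for 0 of 8 at 0.016 µM, against 0.0353%, and at 0.4 µM for 3 of 8, against 13.4%: Cd274 by -2.75, Cd40 by -2.87 and Lgals9 by -1.10.

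Members also changed in NTC cells given the drug. At 10 µM Havcr2 rose 1.92-fold (0.94 ± 0.15, limma adjusted p = 0.000175) and Icosl, at 4.60, 5.03 and 4.39, rose 2.60-fold (1.38 ± 0.42, limma adjusted p = 0.0271), 2 of 8 members against 13.6% of all genes. Cd274 missed the threshold with all libraries (-1.65 ± 0.61, limma adjusted p = 0.0702) and passed it without KO 0.4 µM replicate 2 (limma adjusted p = 9.32e-05), as did Lgals9 (-0.62, limma adjusted p = 0.000228), giving 4 of 8 against 20.5%. At 0.4 µM limma called 0 of 8 NTC members and 1 of 11339 genes (0.00882%), with 1 member and 602 genes at an unadjusted p under 0.05, and 1 of 8 members, Lgals9 (-0.78, limma adjusted p = 3.07e-05), against 0.619% without that library. The interferon-response genes summed to 187 to 207 CPM in KO libraries at 10 µM, with 19 of 20 lower than at 0 µM and 0 of 20 called against NTC at 10 µM, and 4 of 20 fell within NTC. The part of these genes and of the border macrophage markers in the member calls was not tested. Of the 29 other co-stimulatory and checkpoint genes tested, 10 rose and 7 fell in KO against NTC at 0 µM, and 10 rose and 14 fell in KO from 0 to 10 µM. In the first contrast Cd24a fell by 2.51 (limma adjusted p = 1.2e-07), Pirb, an inhibitory receptor for MHC class I, by 0.83 (limma adjusted p = 1.93e-06) and Lgals1 by 0.81 (limma adjusted p = 1.7e-05). In the second Lgals3 fell by 2.94 (limma adjusted p = 3.46e-14), Nectin2 by 3.64 (limma adjusted p = 8.26e-13) and Vsir, the checkpoint molecule VISTA, by 2.64 (limma adjusted p = 1.2e-12).

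**Figure D4:**
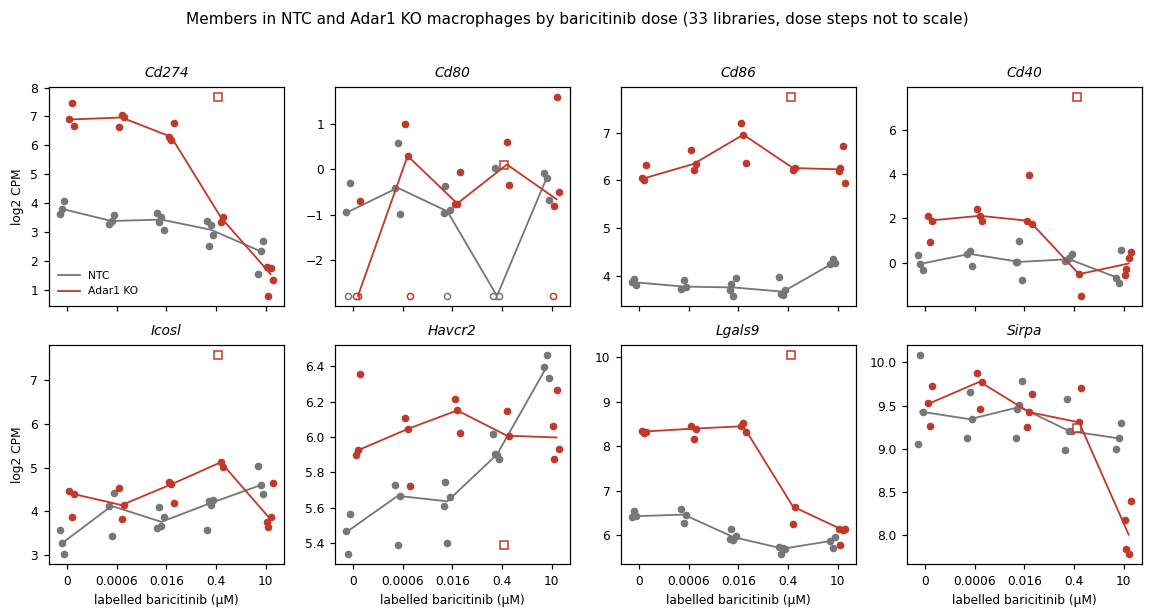
Log2 CPM of the members against baricitinib dose in µM as labelled, for NTC and Adar1 KO macrophages; points are libraries (3 or 4 per dose), lines join medians, open circles are libraries at the lowest value and the open square is KO 0.4 µM replicate 2. Pdcd1lg2 is not drawn. Cd274 in KO falls from 6.65 to 7.45 without drug to 0.79 to 1.79 at 10 µM, while Cd86 at 10 µM is at 5.94 to 6.72, against 6.01 to 6.32 without drug.

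Across the 34 comparisons the members fell into different patterns. Cd86 was called higher in 11 and lower in 0, Cd274 higher in 12 and lower in 4, Cd40 higher in 9 and lower in 2 and Lgals9 higher in 8 and lower in 2. Icosl was called higher in 8 and lower in 1 and Havcr2 higher in 8 and lower in 2. Sirpa was the member most often called lower, in 7 comparisons against 5 in which it was higher, and Cd80 was called once among 27 tests. Many of these comparisons share libraries, so the counts are not independent. Among the genes whose levels ran most closely with a member over the 33 baricitinib libraries were Sp100 (r = 0.991) and Pyhin1 (r = 0.988) for Lgals9, Lgals3bp (r = 0.978), Pfkfb3 (r = 0.976) and Slfn8 (r = 0.975) for Cd274, and Bcl2a1b (r = 0.978), Clec4n (r = 0.964) and Fpr2 (r = 0.964) for Cd86. Over the 27 libraries of macrophages and brain cells they were Nampt (r = 0.914) for Cd274, Gm12250 (r = 0.912) for Cd40, Mb21d1 (r = 0.937) for Cd86 and C1qb (r = 0.929), C1qa (r = 0.926) and Lair1 (r = 0.916) for Havcr2. These are Pearson correlations over libraries that share groups and a normalization, and are given as descriptions.

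**Figure D5:**
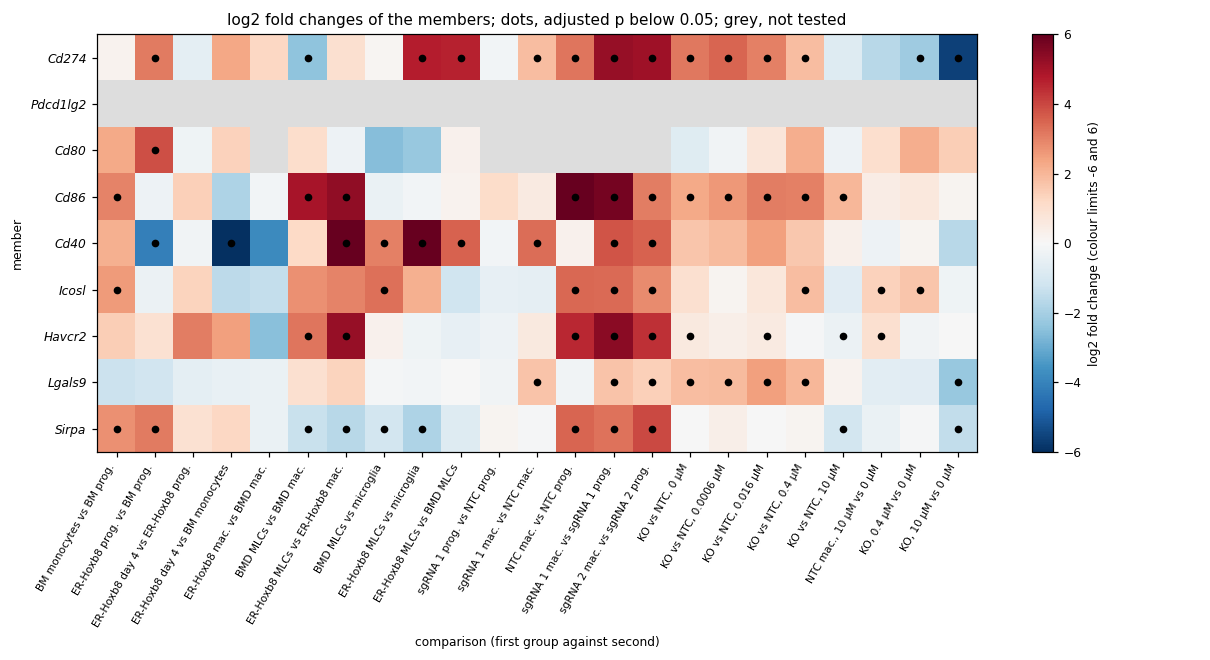
Log2 fold change of each member (red higher and blue lower in the first-named group, colours limited at 6 either way) by comparison, leaving out differences between effects and dose comparisons within a line that called no member; dots mark a limma adjusted p below 0.05 and grey marks a gene not tested. Dots for Cd86 are all red, and those for Sirpa are blue for MLCs against macrophages or microglia and for KO cells at 10 µM.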

How the data were processed

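Bulk RNA sequencing libraries were grouped, and replicates numbered, from the sample labels. As described by the study, RNA was isolated on RNeasy columns and made into low-input libraries, reads were trimmed (fastp) and assigned to mouse transcripts (kallisto 0.46.0), and gene sums from tximport were TMM-scaled by the authors with edgeR. The values deposited by the authors are log2 CPM with an offset, and no counts were used. Of 29957 rows, 1 without a gene name (0.0023% to 0.0584% of a library) was left out, and 0 columns were left out. Depth was estimated from the smallest steps between values. Mean depths of 13.7 to 40.6 M per set follow if the offset is a prior count of 2. Offsets limit the precision of low values.

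Genes above 0 log2 CPM in at least 3 libraries of a fit (6 in the fit of macrophages and brain samples) entered limma 3.58.1 (R 4.3.3, group means, eBayes with trend, Benjamini-Hochberg adjustment over all tested genes), giving 34 comparisons, on fits tested on simulated data first. NTC macrophage replicate 2 was described only. CPM sums of lists were rebuilt as 2 to the log2 value minus the offset. The members and lists were chosen with earlier results of these data known. All members were named, and among 52 further co-stimulatory and checkpoint genes the 3 with the smallest adjusted p in 6 comparisons. For likeness, the 3 highest correlations per member were taken, of which some are printed. Promoter sequences are from RefSeq (GRCm38.p6), a build other than the GRCm39 transcripts of the authors. Alternatives were another offset (log2(CPM + 1)), no filter, a replicate block, a log2 fold change limit of 2, single-library omissions, parts of the MLC and microglia libraries, all 12 NTC and sgRNA 1 libraries and, chosen after seeing the data, quantile normalization and fits without libraries that stood apart. Numbers were taken to pair libraries where at least 3 pairs existed and every r of their deviations from the group means was over 0.1, which held only for ER-Hoxb8 day 4 and progenitors (r of 0.226 to 0.426) and sgRNA 1 and NTC progenitors (r of 0.159 to 0.344).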

Additional observations from a re-analysis of the deposited data

Results flagged for a closer look

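In 7 of 62 pairs of a member and a group of 4 to 10 libraries, 1 library lay apart from the others by its gap. Chance gives about 1 in 20 where values are not tied. The level of Pdcd1lg2 in BMD MLC replicate 5 was -3.06, with the others at the lowest value, -3.62. Cd80 in NTC 0.4 µM replicate 2 was 0.019, with the others at the lowest value, -2.78. The chance rate does not hold for these pairs, since 1 library above others at the lowest value is always flagged. Cd86 was lowest in BMD MLC replicate 2, at 8.55 against a median of 9.10, and highest in sgRNA 2 macrophage replicate 2, at 4.21 against 4.09. Icosl was at 4.63 in BMD MLC replicate 3, against a median of 7.47. Havcr2 was at 7.05 in ER-Hoxb8 MLC replicate 6, against 8.05, and Lgals9 at 5.77 in Adar1 KO 10 µM replicate 2, against 6.13.

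Effects that differed between groups by limma's test of the difference were as follows. The difference of brain from culture libraries in Cd40 was larger by 7.33 in ER-Hoxb8 than in BMD cells, with donor line and isolation differing too. The Adar1 sgRNA 1 effect was larger in macrophages than in progenitors by 2.01 for Cd274, 3.49 for Cd40 and 1.92 for Lgals9, and the Cd40 call was lost without the filter. Between 0 and 10 µM baricitinib the Adar1 KO effect changed by -3.93 for Cd274, -1.65 for Icosl, -0.97 for Havcr2, -1.67 for Lgals9 and -1.07 for Sirpa. The Lgals9 call was lost in 13 of 14 single-library omissions. Limma adjusted p ranged from 1.27e-05 to 0.0436.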

How the results depend on the processing

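The counts of called members were compared over the alternatives. With a log2 fold change limit of 2, the count went from 3 to 1 for sgRNA 1 against NTC macrophages, and for Adar1 KO against NTC from 4 to 2 at 0 µM, 4 to 1 at 0.4 µM and 3 to 0 at 10 µM. It also went from 2 to 0 for NTC at 10 against 0 µM, 2 to 1 for KO at 0.4 against 0 µM and 5 to 1 for the change of the KO effect at 10 µM. On log2(CPM + 1) it was 5 for BM monocytes against BM progenitors (3 in the main test), 2 for the difference of the brain changes (1) and 2 for ER-Hoxb8 day 4 against BM monocytes (1). With quantile normalization these were 6, 2 and 3. With ER-Hoxb8 progenitor replicate 3 as the only library of its group, it was 2 against BM progenitors (4) and 4 for day 4 against it (0). GFPHox libraries alone gave 2 for the brain changes, and no filter gave 1 for NTC at 10 µM (2). Leaving out single libraries gave 0 to 2 (main 3) for BM monocytes against progenitors, 2 to 4 (4) for ER-Hoxb8 against BM progenitors, 0 to 3 (0) for day 4 against ER-Hoxb8 progenitors, 1 to 2 (1) for day 4 against monocytes, 1 to 4 (4) for BMD MLCs against macrophages and 1 to 2 (1) for the brain changes. In the baricitinib set it gave 3 to 5 (3) for KO against NTC at 0.0006 µM and 2 to 5 (3) at 10 µM, 0 to 1 (0) for NTC at 0.4 µM and 1 to 4 (2) at 10 µM, 0 to 1 (0) for KO at 0.016 µM and 1 to 4 (2) at 0.4 µM, and 0 to 3 (0) and 3 to 5 (5) for the change of the KO effect at 0.4 and 10 µM.

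Without KO 0.4 µM replicate 2, Cd40 in KO at 0.4 against 0 µM turned to -2.66 and the change of the Lgals9 KO effect at 0.4 µM turned to -1.10, since that library alone was high for both. A replicate block moved no count of called members by over 1.5 times. Under the block Cd80 lost its call in ER-Hoxb8 against BM progenitors (3.87, limma adjusted p = 0.0573), and 6 calls in 4 members were gained: Icosl (3.47 and 3.72) and Lgals9 (1.33 and 1.68) in BMD and ER-Hoxb8 MLCs against macrophages, Cd40 in monocytes and Sirpa between the MLCs. The replicate numbers were not taken to pair libraries in any of these comparisons, so the block is arbitrary there and the gained calls are no support. Quantile normalization lost Cd40 for the difference of the sgRNA 1 effects (3.10, limma adjusted p = 0.0513), as did leaving out the filter (3.49, limma adjusted p = 0.0666). Low levels limit Cd80 and Pdcd1lg2, whose values lie near the offset in many libraries.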
